A study of Rattus norvegicus with 46 samples.

Results

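Gene expression in the uninjured subacromial bursa of rats was set against that in the uninjured supraspinatus tendon. The comparison used 10 of the 46 RNA libraries of a study of rotator cuff injury, chosen by their tissue and treatment labels alone: 5 bursae and 5 tendons labelled as controls, from animals that had no operation. In the rest of the study the supraspinatus tendon was released by surgery, with the bursa kept or excised, and tissue was taken at day 3 or day 14. All libraries were made from poly(A) RNA of whole dissected tissue. The labels give no strain, sex, age, allele or agent for the control animals. They also do not tie a library to an animal, so the p-values measure the spread between these libraries, which may in part be technical. In such bulk tissue, fewer cells of a type and less RNA per cell cannot be told apart.

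The supraspinatus tendon is dense connective tissue that joins a muscle of the rotator cuff to the head of the humerus. Its cells, the tenocytes, lie between parallel collagen I fibres, and their identity depends on the transcription factors scleraxis and Mohawk. The subacromial bursa is a thin sac between this tendon and the acromion, with a lining of synovial type that makes a lubricating fluid and a wall of loose tissue that can hold fat, blood vessels, nerves and immune cells.

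The libraries held 15539441 to 20394839 estimated counts in bursa and 12425823 to 18251222 in tendon. Levels below are CPM, counts scaled to a common library size with TMM factors, given in the order of the labels' replicate numbers. Differences are log2 fold changes of bursa over tendon ± standard error from an edgeR quasi-likelihood fit. The standard error was derived as the absolute fold change over the square root of the F statistic. It therefore restates the test, and it is rough where a tissue is at or near 0 counts. A gene was called higher or lower when its Benjamini-Hochberg adjusted p over all features tested was under 0.05. A count of 0 allows up to 3 counts, which is 0.105 to 0.287 CPM depending on the library.

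The 5 bursae were not alike. Transcripts of the mitochondrial genome made up 48.9% and 53.5% of all counts in bursae 1 and 2, and 13.3%, 13.4% and 17% in bursae 3 to 5, against 24.7% to 36.5% in the tendons. Bursae 1 and 2 also carried brown fat transcripts, bursa 1 had the most muscle RNA of the 5, and bursa 4 had cartilage transcripts and the highest level of tendon genes among bursae. Transcripts of the contractile list and of the muscle energy and calcium handling list together held 0.65% ± 0.758 (SD, n = 5) of counts in bursa. They held 6.63% ± 1.03 (SD, n = 5) in tendon. White adipocyte transcripts held 3.15% ± 0.503 of counts in bursa and 0.126% ± 0.0341 in tendon (SD, n = 5 each). Results that rest on bursae 1 and 2 or on bursa 4 are therefore given with and without them. These libraries were picked out by their levels of mitochondrial, brown fat, cartilage and tendon genes. For such genes, the fold changes, counts and adjusted p-values without them describe the remaining libraries and are not independent tests.

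**Figure D1:**
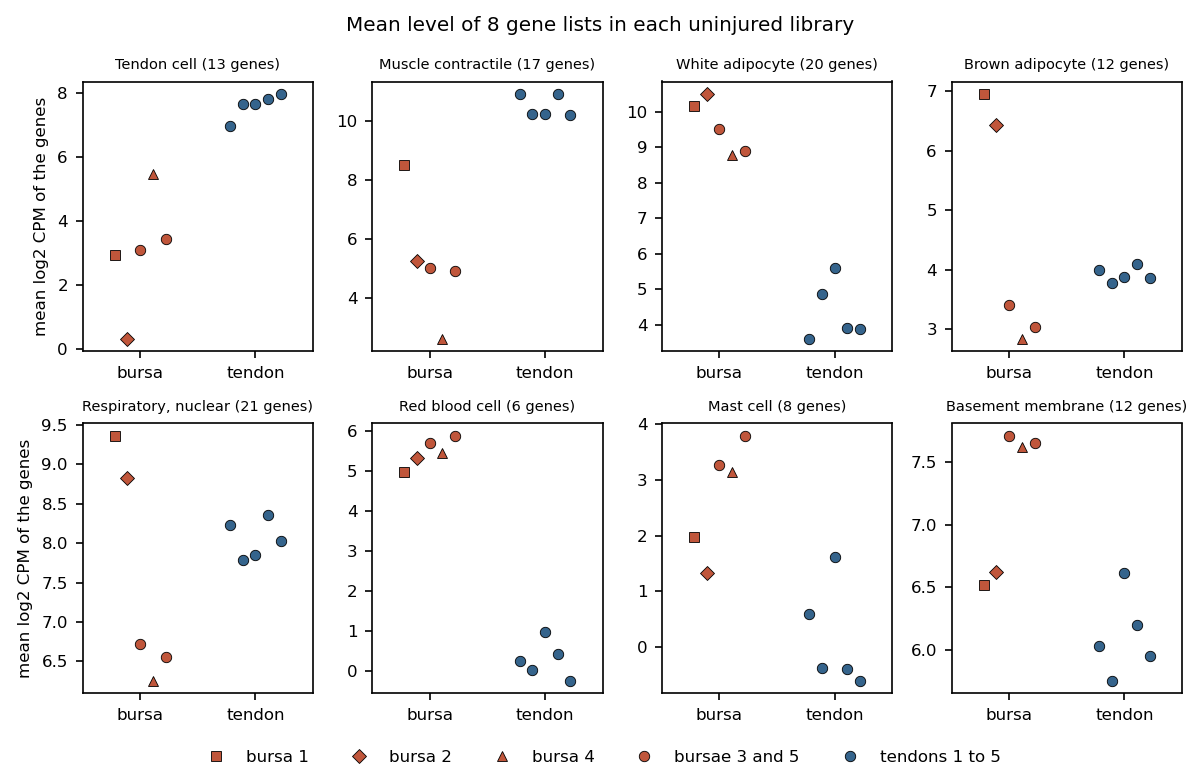
Mean log2 CPM of the tested genes of 8 gene lists in each of the 5 uninjured bursa libraries (left of each panel) and 5 uninjured tendon libraries (right), 1 point per library. Bursae 1 and 2 stand apart from bursae 3 to 5 in the brown adipocyte and respiratory lists, and bursa 4 has the highest tendon cell level among the bursae.

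Of 14916 features tested, 2979 were higher in bursa (20.0%) and 2632 were lower (17.6%), or 5611 in either direction (37.6%). The bursa and tendon libraries did not overlap in 4402 features (29.5%), with every bursa above every tendon in 2267 (15.2%) and every bursa below every tendon in 2135 (14.3%). The median log2 fold change of all features was 0.05. Without bursae 1 and 2, 3736 of 15623 features were higher (23.9%) and 3818 lower (24.4%). Counts of the gene lists below are to be read against these shares. Of 620 genes in 40 lists, 464 were tested.

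**Figure D2:**
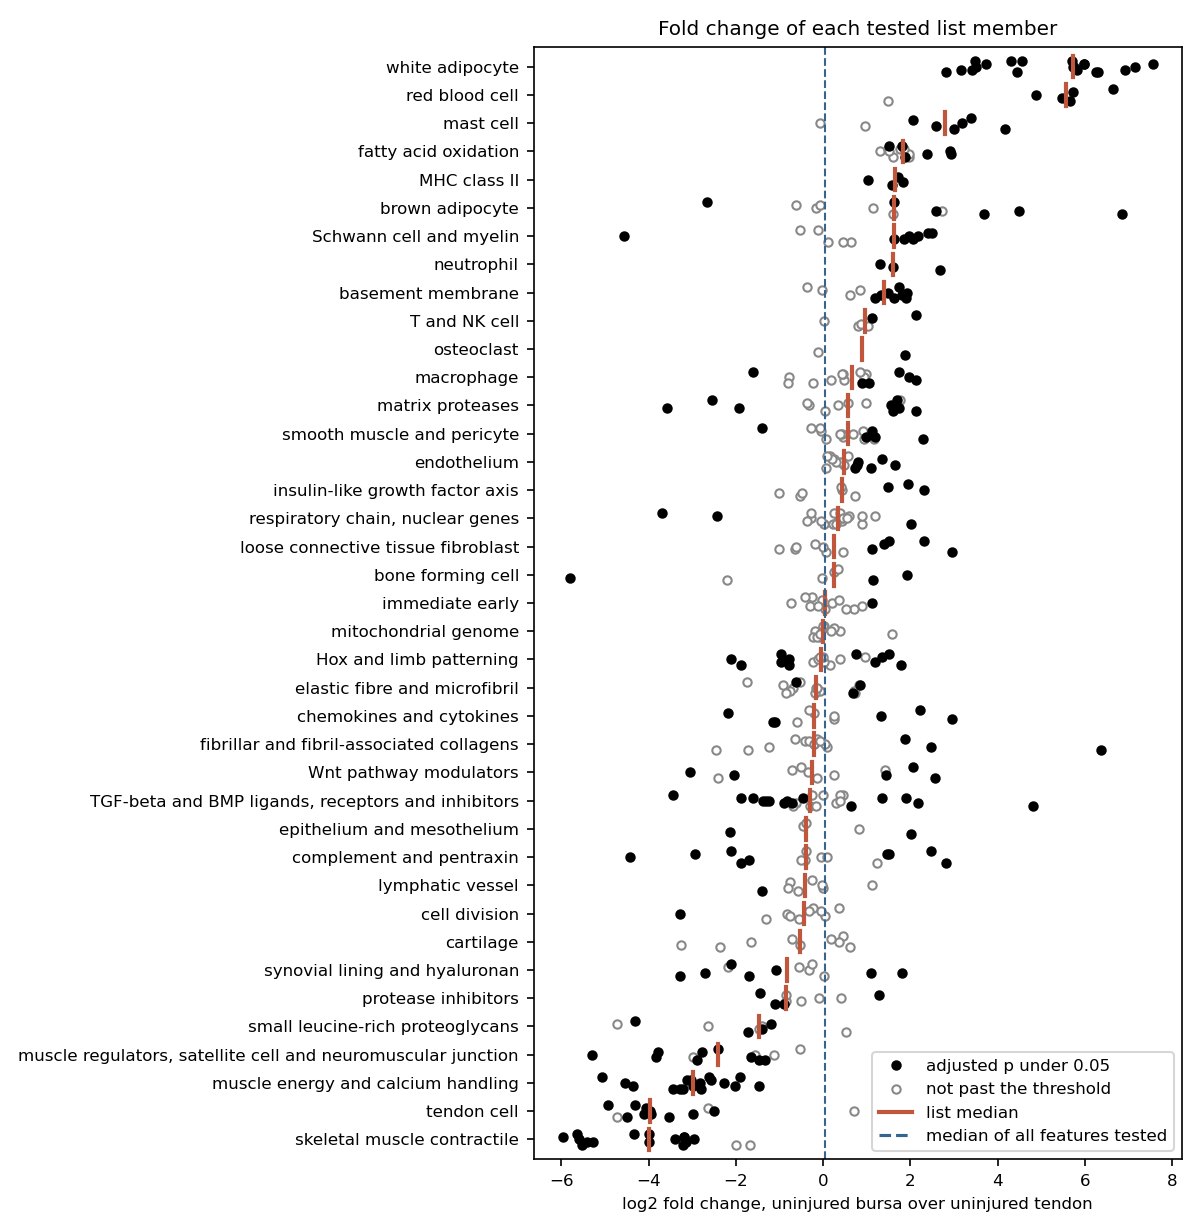
Log2 fold change of uninjured bursa over uninjured tendon for each tested member of 39 gene lists, 1 row per list, with filled points for an adjusted p under 0.05, open points for the others, a red bar at the list median and a dashed line at the median of all features (0.05). White adipocyte and red blood cell genes lie far to the right and muscle contractile and tendon cell genes far to the left. Pitx1 of the patterning list, with 0 counts in every bursa, is left out.

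Genes that mark the tenocyte were lower in bursa. Of 13 tendon cell genes tested, 10 were lower and 0 higher, with a median log2 fold change of -3.97. Scx, which encodes scleraxis, had 5.01, 0.404, 0.906, 3.03 and 1.12 CPM in the bursae, against 26.1, 25.1, 15.5, 26.7 and 25.8 CPM in the tendons. Every bursa was far below every tendon, and tendon 3 was the lowest of its group. The difference was -3.53 ± 0.56 (adjusted p = 0.001).

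Mkx, which encodes Mohawk, had 0.684, 0, 0.494, 0.745 and 0.453 CPM in the bursae and 5.25, 10.4, 9.07, 7.73 and 10.2 CPM in the tendons. All bursae were below 1 CPM and the groups did not overlap. The fold change was -4.1 ± 0.5 (adjusted p = 0.00023). Tnmd encodes tenomodulin, a membrane protein of mature tenocytes. Its level was 6.91, 1.54, 11.6, 38.1 and 13.1 CPM in the bursae and 133, 215, 193, 206 and 370 CPM in the tendons. Bursa 4 was the highest bursa but still well below the lowest tendon (-3.97 ± 0.71, adjusted p = 0.002).

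The matrix genes of the tendon list went the same way. Thbs4, a thrombospondin of the tendon matrix, averaged 101 ± 123 CPM in bursa and 1560 ± 304 CPM in tendon (SD, n = 5 each). Its fold change was -3.95 ± 0.91 (adjusted p = 0.0073). Col22a1, a collagen of the junction between muscle and tendon, averaged 2.11 ± 0.902 CPM in bursa and 64.7 ± 21.3 CPM in tendon (SD, n = 5 each), with little spread among bursae (-4.93 ± 0.37, adjusted p = 2.3e-05). The keratan sulphate proteoglycan Kera was lower by the same test (-4.3 ± 0.85, adjusted p = 0.0033).

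Bursa 4 set the outcome for some matrix genes of tendon. Chad, which encodes chondroadherin, had 1.75, 0.0808, 1.11, 186 and 0.941 CPM in the bursae and 336, 1020, 891, 1240 and 1560 CPM in the tendons. It was above 2 CPM in no bursa other than bursa 4, and its fold change of -4.73 ± 1.78 did not pass (adjusted p = 0.059). Fmod, which encodes the fibril organiser fibromodulin, had 1500 CPM in bursa 4, 45.7 to 133 CPM in the other bursae and 1380 to 3200 CPM in the tendons (-2.63 ± 0.96, adjusted p = 0.053). Without bursa 4, 12 of the 13 tendon cell genes were lower, with a median of -4.71.

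**Figure D3:**
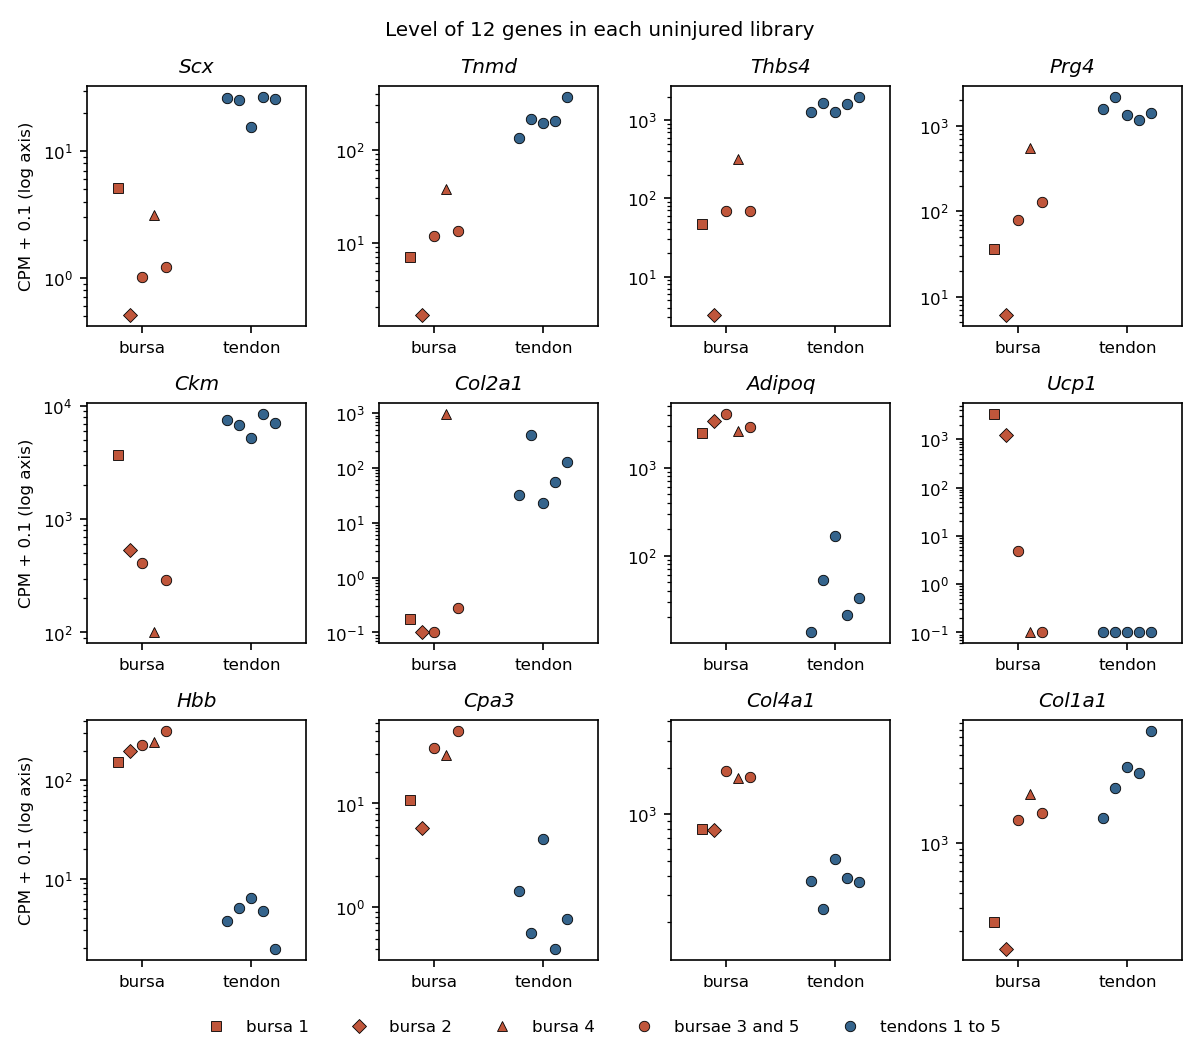
Level of 12 genes in each uninjured library, as CPM + 0.1 on a log axis, with the 5 bursae on the left of each panel and the 5 tendons on the right. Scx, Tnmd, Thbs4, Prg4 and Ckm are below the tendons in every bursa, Adipoq, Hbb, Cpa3 and Col4a1 are above them, Col2a1 is high in bursa 4 alone among bursae, and Ucp1 is at 0 in all tendons.

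Skeletal muscle genes were the other large group that was lower in bursa. Of 17 contractile genes tested, 0 were higher and 15 lower, with a median of -4. All 17 genes of muscle energy supply and calcium handling were lower (median -2.98), as were 9 of 13 genes of muscle regulators, satellite cells and the neuromuscular junction (median -2.4). Acta1, the actin of the muscle fibre, had 6500, 702, 545, 160 and 528 CPM in the bursae and 20000, 14600, 11300, 18300 and 13200 CPM in the tendons. Bursa 1 was several times above the other bursae, yet below every tendon. The fold change was -3.2 ± 0.95 (adjusted p = 0.024).

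Ckm, the creatine kinase that buffers ATP in muscle, had 3700, 538, 410, 99.9 and 289 CPM in the bursae and 7480, 6780, 5210, 8550 and 7080 CPM in the tendons. Here too bursa 1 was the highest bursa and the groups did not overlap (-2.8 ± 0.88, adjusted p = 0.03). As single libraries were left out, Acta1 did not pass without bursa 2, 3 or 5, where its fold change was -3 to -2.97 (adjusted p = 0.052 to 0.057). Ckm did not pass without bursa 2, 3 or 5 or tendon 1, 2, 4 or 5, where its fold change was -2.82 to -2.56 (adjusted p = 0.052 to 0.071). With bursae 1 and 2 left out the fold changes were -5.24 for Acta1 (adjusted p = 5.2e-05) and -4.73 for Ckm (adjusted p = 7.5e-05).

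The RefSeq sequences of 250 bases upstream of the start of Acta1 and Ckm are shown because the levels of these genes are given above in every library, and because E-boxes are the known binding letters of MyoD and its relatives, which switch on muscle genes. The build is GRCr8, and the capitals mark CAGCTG, an E-box that reads the same on both strands. Acta1 is on the minus strand at chr19:68784195-68784444 and holds 1 match. Ckm is on the plus strand at chr1:88189211-88189460 and holds 2 matches.
Acta1: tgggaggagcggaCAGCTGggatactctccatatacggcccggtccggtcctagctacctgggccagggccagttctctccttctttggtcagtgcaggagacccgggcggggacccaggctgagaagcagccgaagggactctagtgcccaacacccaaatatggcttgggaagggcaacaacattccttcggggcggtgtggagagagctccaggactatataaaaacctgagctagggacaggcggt
Ckm: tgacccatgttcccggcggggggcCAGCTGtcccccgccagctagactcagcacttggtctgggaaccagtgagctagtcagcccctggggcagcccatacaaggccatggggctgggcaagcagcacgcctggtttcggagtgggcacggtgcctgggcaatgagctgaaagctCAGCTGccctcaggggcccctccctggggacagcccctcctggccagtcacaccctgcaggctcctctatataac
The letters CAGCTG occurred in the same window of 7 of 18 genes of the muscle energy list (38.9%) and 5 of 21 of the contractile list (23.8%), and in 12% of all 33469 genes. They also occurred in 3 of 10 tendon cell genes (30%) and 4 of 13 white adipocyte genes (30.8%). A match describes the letters and not a bound site.

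The 6 lowest fold changes of the contractile list, from -5.96 to -5.28, belonged to Myoz2, Myl2, Tnnc1, Myl3, Tnnt1 and Myh7, all of slow fibres. A difference between slow and fast fibre genes was not tested, and the fast myosins Myh1 and Myh2 were not analysed here. Myh7, the slow myosin heavy chain, averaged 41 ± 68.7 CPM in bursa and 1590 ± 1050 CPM in tendon (SD, n = 5 each; -5.28 ± 1.32, adjusted p = 0.011). Myl2, a light chain of slow and cardiac myosin, averaged 9.64 ± 16.3 CPM in bursa and 472 ± 229 CPM in tendon (SD, n = 5 each; -5.63 ± 1.17, adjusted p = 0.0043). Mb, the oxygen store myoglobin, was also lower (-4.53 ± 1.01, adjusted p = 0.0063). Genes known from fast fibres were lower too, among them the myosin light chain Mylpf (-3.18 ± 0.9, adjusted p = 0.019) and the troponin Tnnc2 (-3.18 ± 0.94, adjusted p = 0.024), the last of which did not pass without bursa 2, 3 or 5 (adjusted p = 0.052 to 0.056). The calcium buffer Pvalb (-3.02 ± 0.86, adjusted p = 0.02) and the calcium store protein Casq1 (-3.28 ± 0.87, adjusted p = 0.014) were lower by the same test. The contractile genes that did not pass were the fast fibre genes Actn3 (-1.99 ± 0.88, adjusted p = 0.1) and Mybpc2 (-1.67 ± 0.89, adjusted p = 0.17).

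Bursa 1 was above some tendons in Actn3 and Mybpc2. Actn3 had 2530 CPM in bursa 1, 57 to 385 CPM in the other bursae and 2050 to 3340 CPM in the tendons. Both were lower without bursae 1 and 2, with fold changes of -4.13 for Actn3 (adjusted p = 0.00015) and -3.95 for Mybpc2 (adjusted p = 0.00043), and all 17 genes of the contractile list passed. As single libraries were left out, the number of lower contractile genes ranged from 12 to 17 and that of muscle energy genes from 11, without bursa 3, to 17.

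Regulators of muscle were measured as well. Myod1, the master regulator of myogenesis, had 8.81, 1.21, 1.15, 0.307 and 0.837 CPM in the bursae and 20.9, 17.1, 11.7, 22.5 and 14.3 CPM in the tendons. The groups did not overlap, with bursa 1 nearest to the tendons (-2.88 ± 0.76, adjusted p = 0.014). Myf5, a regulator of muscle precursors, was at 0 in bursae 2 to 5 and at 0.304 CPM in bursa 1, against 1.31 to 3.48 CPM in the tendons (-5.3 ± 0.92, adjusted p = 0.0016). Myh3, the embryonic myosin heavy chain, averaged 0.921 ± 0.917 CPM in bursa and 157 ± 44.7 CPM in tendon (SD, n = 5 each; -7.46 ± 0.6, adjusted p = 3.1e-05).

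Features that vary with muscle RNA were counted over 24 injured tendon libraries, which the comparison did not use. The contractile genes themselves were not left out of these counts. Of the 2632 features lower in bursa, 1002 (38.1%) followed the contractile list there with a Pearson r of at least 0.5 after group means were removed, against 2248 of all 14916 features tested (15.1%). Those libraries share depth and muscle content, so the correlation is a description. The part that muscle cells in the dissected tendon had in the other genes was not tested.

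Among the 10 lowest genes that did not follow muscle were several of tendon and fibrocartilage. Coch, which encodes the matrix protein cochlin, had 0.152 CPM in bursa 1 and 0 in the other bursae, against 9.87, 16.6, 33, 11.4 and 24.3 CPM in the tendons. Every tendon was far above every bursa (-9.44 ± 0.73, adjusted p = 2.7e-05). Spp1, which encodes osteopontin, had 0, 0, 0.865, 25.4 and 1.81 CPM in the bursae and 63.6, 380, 177, 413 and 552 CPM in the tendons (-5.8 ± 1.54, adjusted p = 0.014). Bursa 4 was again the highest bursa. Itga10, a collagen-binding integrin of cartilage, had 10.7 CPM in bursa 4, at most 0.618 CPM in the other bursae and 28.4 to 66 CPM in the tendons (-4.34 ± 1.09, adjusted p = 0.011).

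The others of these 10 genes had fold changes of -6.07 to -3.95. They included Serpina1, the protease inhibitor alpha-1 antitrypsin, which averaged 0.736 ± 0.373 CPM in bursa and 22.4 ± 4.31 CPM in tendon (SD, n = 5 each; -4.89 ± 0.32, adjusted p = 1.5e-05). Serpinb7, a serpin of the intracellular family, averaged 0.149 ± 0.191 CPM in bursa and 11 ± 6.52 CPM in tendon (SD, n = 5 each; -6.07 ± 0.76, adjusted p = 0.00028). Angptl7, a secreted protein of the angiopoietin-like family, had a fold change of -4.5 ± 1.04 (adjusted p = 0.0072).

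Genes of the synovial lining did not mark the bursa libraries as a group. Of 12 genes for the lining and for hyaluronan, 2 were higher and 5 lower, with a median of -0.82. Prg4 encodes lubricin, the boundary lubricant of joints, bursae and gliding tendon surfaces. It had 36, 5.9, 78, 550 and 130 CPM in the bursae and 1600, 2200, 1360, 1180 and 1420 CPM in the tendons. Bursa 4 was the highest bursa and bursa 2 the lowest, and all were below every tendon (-3.28 ± 0.96, adjusted p = 0.022).

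Has1, a hyaluronan synthase, averaged 1.73 ± 1.45 CPM in bursa and 11.8 ± 2.82 CPM in tendon (SD, n = 5 each; -2.7 ± 0.61, adjusted p = 0.0066). Cd44, the hyaluronan receptor, was lower in bursa as well (-1.69 ± 0.39, adjusted p = 0.0069), and so was Cd55, a complement inhibitor of the lining layer (-2.11 ± 0.34, adjusted p = 0.0011). Vcam1, an adhesion molecule of synovial lining cells and of activated vessels, was higher (1.8 ± 0.35, adjusted p = 0.0032), with 18.2 to 57.9 CPM in bursa and 8.8 to 18.5 CPM in tendon.

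Cartilage genes turned on bursa 4. Of 9 tested, 0 passed in edgeR in either direction (median -0.54), 0 reached an unadjusted p under 0.05 and 0 passed in DESeq2. With all 46 libraries in the fit, 1 was higher and 4 were lower, and with replicate number as a block 2 were lower. Col2a1, the main collagen of cartilage, had 0.076, 0, 0, 967 and 0.174 CPM in the bursae and 32.5, 391, 22.8, 55.8 and 127 CPM in the tendons. Bursa 4 held more than any tendon while the other bursae were at or near 0 (0.62 ± 2.17, adjusted p = 0.85). Clec3a, a cartilage lectin, had 610 CPM in bursa 4, 0.076 to 0.558 CPM in the other bursae and 384 to 1560 CPM in the tendons (-3.25 ± 2.08, adjusted p = 0.25). Without bursa 4, 6 of 9 cartilage genes were lower and the median was -4.09, with Col2a1 at -10.61 (adjusted p = 0.00065). Bursa 4 was picked out by these genes, so the values without it are descriptions.

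Of 15 genes of fibril-forming and fibril-associated collagens and of collagen VI, 3 were higher in bursa and 0 lower (median -0.22). The higher ones were at about the share over all features (20.0%), and the lower ones were below theirs (17.6%). By DESeq2 and with all 46 libraries in the fit, 3 were higher and 3 lower. Without bursa 4, 3 were higher and 4 lower, and without bursae 1 and 2, 5 were higher and 0 lower. Col1a1, the main fibre collagen of tendon, had 234, 141, 1530, 2440 and 1720 CPM in the bursae and 1590, 2760, 4070, 3650 and 7840 CPM in the tendons. The groups overlapped through bursae 4 and 5 and tendon 1, and the difference did not pass (-1.71 ± 0.77, adjusted p = 0.11). Col3a1, the collagen of loose and healing tissue, had 770, 610, 4720, 6360 and 5000 CPM in the bursae and 2700 to 3850 CPM in the tendons. Bursae 1 and 2 were below and bursae 3 to 5 above all tendons (0.08 ± 0.61, adjusted p = 0.94). Without bursae 1 and 2, Col3a1 was higher by 0.69 (adjusted p = 0.014).

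The collagens that were higher were minor ones. Col6a5, a chain of the microfibrillar collagen VI, had 18, 13.9, 34.5, 18.7 and 26.7 CPM in the bursae and 0, 0.209, 0.979, 0 and 0.0956 CPM in the tendons. It was below 1 CPM in every tendon (6.36 ± 0.73, adjusted p = 0.00018). Col6a6, another chain of collagen VI, averaged 46.3 ± 24.4 CPM in bursa and 8.37 ± 3.24 CPM in tendon (SD, n = 5 each; 2.47 ± 0.42, adjusted p = 0.0015). Col5a3, a chain of the collagen V that sets fibril width, was higher too (1.88 ± 0.5, adjusted p = 0.014).

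Small leucine-rich proteoglycans, which bind and space collagen fibrils, were lower in 4 of 9 genes and higher in 0 (median -1.47). By DESeq2, with all 46 libraries in the fit and without bursa 4, 7 of 9 were lower. Dcn, which encodes decorin, averaged 1320 ± 805 CPM in bursa and 4320 ± 1160 CPM in tendon (SD, n = 5 each; -1.71 ± 0.48, adjusted p = 0.018). Lum, which encodes lumican, averaged 131 ± 67.1 CPM in bursa and 300 ± 52.2 CPM in tendon (SD, n = 5 each; -1.19 ± 0.36, adjusted p = 0.026). In both genes no bursa reached the lowest tendon.

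Basement membrane genes were higher in bursa in 8 of 12 cases and lower in 0 (median 1.4). Col4a1, a chain of the collagen IV network under endothelium, around adipocytes and around nerve fibres, had 807, 797, 1900, 1720 and 1750 CPM in the bursae and 368, 243, 515, 388 and 363 CPM in the tendons. All bursae were above every tendon, with bursae 1 and 2 the lowest (1.89 ± 0.34, adjusted p = 0.0018). Lamb1, a laminin chain, averaged 199 ± 53.6 CPM in bursa and 52.6 ± 17.3 CPM in tendon (SD, n = 5 each; 1.92 ± 0.26, adjusted p = 0.00048). The linker protein nidogen 2, from Nid2, was higher by 1.62 ± 0.25 (adjusted p = 0.00094).

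Genes of loose connective tissue fibroblasts were higher in 5 of 12 cases and lower in 0 (median 0.26), and in 9 of 12 without bursae 1 and 2. Entpd2, an enzyme that breaks down extracellular ATP, had a fold change of 2.32 ± 0.38 (adjusted p = 0.0012) and Clec3b, which encodes tetranectin, 1.51 ± 0.34 (adjusted p = 0.0068). Of 16 elastic fibre genes, 2 were higher and 1 lower (median -0.17), both below the shares over all features. As single libraries were left out the higher genes ranged from 0 to 3 and the lower ones from 0 to 5, with 5 lower without bursa 4. Without bursae 1 and 2, 5 were higher and 0 lower.

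Matrix proteases differed in both directions, with 5 of 15 higher and 3 lower (median 0.57), or 9 and 4 of 16 without bursae 1 and 2. Mmp3, stromelysin, averaged 0.666 ± 0.755 CPM in bursa and 8.6 ± 4.85 CPM in tendon (SD, n = 5 each; -3.58 ± 0.77, adjusted p = 0.0051). Mmp19, a protease of vessel wall and fibroblasts, averaged 30.7 ± 4.81 CPM in bursa and 6.96 ± 2.91 CPM in tendon (SD, n = 5 each; 2.13 ± 0.26, adjusted p = 0.00027). The aggrecan-cutting enzyme Adamts5 was higher (1.61 ± 0.45, adjusted p = 0.018). Of 9 protease inhibitors, 1 was higher and 3 lower (median -0.84). The higher one was Timp4 (1.29 ± 0.23, adjusted p = 0.0018), an inhibitor of metalloproteases.

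All 20 white adipocyte genes were higher in bursa, with a median of 5.72. Adipoq, the fat hormone adiponectin, had 2490, 3400, 4090, 2590 and 2890 CPM in the bursae and 13.3, 52.5, 167, 21.2 and 33.3 CPM in the tendons. The bursae were close to each other and far above the tendons, of which tendon 3 was the highest. The fold change was 5.75 ± 0.75 (adjusted p = 0.00036).

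Plin1, the perilipin that coats fat droplets, had 1570, 1940, 1580, 1090 and 1210 CPM in the bursae and 3.48, 24.9, 52.7, 5.61 and 6.5 CPM in the tendons (6.31 ± 0.85, adjusted p = 0.00043). Again tendon 3 was the highest of its group. Lep, the hormone leptin, had 65.2, 52.2, 585, 207 and 225 CPM in the bursae and 0.443, 1.83, 13.3, 0.875 and 1.24 CPM in the tendons (5.99 ± 1.14, adjusted p = 0.0027). Bursae 1 and 2, which had the highest brown fat levels, had the lowest leptin levels among the bursae. Adrb3, the beta-3 adrenergic receptor of fat cells, averaged 110 ± 17.7 CPM in bursa and 0.871 ± 1.29 CPM in tendon (SD, n = 5 each; 6.91 ± 0.91, adjusted p = 0.00039).

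Lipid synthesis varied among bursae. Fasn, fatty acid synthase, had 4530, 4700, 1110, 303 and 308 CPM in the bursae and 17 to 70.8 CPM in the tendons, with bursae 1 and 2 highest (5.98 ± 0.99, adjusted p = 0.0013). Without those libraries it was still higher, by 4.03 (adjusted p = 0.00057). Scd, a fatty acid desaturase, had 458 CPM in bursa 2, 10.7 to 43.1 CPM in the other bursae and 5.39 to 18.1 CPM in the tendons, so the groups overlapped. Its fold change of 3.49 ± 1.04 (adjusted p = 0.024) came to 1.24 without bursae 1 and 2 and then did not pass (adjusted p = 0.065), and its adjusted p was 0.053 to 0.058 without tendon 1, 2, 4 or 5. The other 19 genes of the list passed without bursae 1 and 2, where the list median was 4.25.

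Among genes with at least 10 CPM in bursa and no overlap, the 10 highest fold changes (6.87 to 8.24) belonged to Gys2, Alb, Camsap3, Angptl8, Pck1, Thrsp, Mst1, Adrb3, Cyp2e1 and Tlcd3b. Gys2, the glycogen synthase of liver and fat, had 208, 213, 7, 3.81 and 4.5 CPM in the bursae and at most 0.89 CPM in the tendons (8.24 ± 1.68, adjusted p = 0.0039). The level was far above the others in bursae 1 and 2, and without them its fold change was 4.18 (adjusted p = 0.0019). Pck1, which feeds glycerol synthesis in fat, had 3790, 6270, 1100, 1390 and 1610 CPM in the bursae and 1.2 to 40 CPM in the tendons (7.55 ± 1.21, adjusted p = 0.0011). Alb, the plasma protein albumin, averaged 305 ± 262 CPM in bursa and 1.09 ± 1.53 CPM in tendon (SD, n = 5 each; 8.06 ± 1.39, adjusted p = 0.0016). Angptl8, an inhibitor of lipoprotein lipase, had 28.7 to 60.3 CPM in bursa and at most 0.783 CPM in tendon (7.81 ± 0.76, adjusted p = 7.6e-05).

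Fat was followed over 12 injured bursa libraries in the same way as muscle. Of the 2979 features higher in bursa, 673 (22.6%) followed the white adipocyte list there, against 1920 of all 14916 tested (12.9%). The 10 highest genes that did not follow it still included genes known from fat cells, namely Lep, Acvr1c, a receptor for activins (6.4 ± 0.78, adjusted p = 0.00024), Hcar2, a receptor for ketone bodies (5.75 ± 0.58, adjusted p = 9.8e-05), and Mc2r, the receptor for ACTH (5.74 ± 0.63, adjusted p = 0.00015). The part that fat content had in the remaining differences was not tested.

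Brown fat genes divided the bursae. Ucp1, the uncoupling protein that defines brown fat, had 3370, 1210, 4.69, 0 and 0 CPM in bursae 1 to 5 and 0 in all 5 tendons. It was high in 2 libraries only and did not pass the filter on low counts, so no test is given. Cidea, a fat droplet protein that is most abundant in brown fat, had 1310, 880, 54, 37.8 and 41.8 CPM in the bursae and 3.23 to 5.44 CPM in the tendons (6.86 ± 1.24, adjusted p = 0.002). It was above the tendons in bursae 3 to 5 as well, by 3.46 without bursae 1 and 2 (adjusted p = 5.3e-06).

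Of 12 brown adipocyte genes tested, 5 were higher and 1 lower, with a median of 1.62. Without bursae 1 and 2, 4 were higher and 6 lower and the median was -0.76. Cox8b, a cytochrome oxidase subunit of brown fat and muscle, had 371, 255, 4.28, 0.745 and 2.48 CPM in the bursae and 138 to 238 CPM in the tendons. Bursae 1 and 2 were above and the other 3 far below all tendons, so the fold change of -0.62 ± 1.32 did not pass (adjusted p = 0.75). It was -6.28 without bursae 1 and 2 (adjusted p = 2.9e-05). Kcnk3, a potassium channel of brown and white fat, was higher with all bursae (4.5 ± 0.62, adjusted p = 0.00047) and without those libraries (3.35, adjusted p = 9.4e-05).

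Fatty acid oxidation and respiration followed the same split. Of 14 genes of fatty acid oxidation, 6 were higher and 0 lower (median 1.83; 11 higher by DESeq2), whereas 5 were higher and 5 lower without bursae 1 and 2 (median -0.17). Decr1, an enzyme that oxidises unsaturated fatty acids, had 452, 441, 88.3, 73 and 84.2 CPM in the bursae and 26.2 to 35.8 CPM in the tendons. Every bursa was above every tendon (2.94 ± 0.59, adjusted p = 0.0034). Acadm, the medium-chain acyl-CoA dehydrogenase, had 2370, 1630, 130, 87.3 and 98.5 CPM in the bursae and 257 to 444 CPM in the tendons, and its fold change was 1.31 ± 0.91 (adjusted p = 0.29) with all bursae and -1.73 (adjusted p = 3e-04) without bursae 1 and 2.

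Nuclear genes of the respiratory chain were higher in 1 of 21 cases and lower in 2 (median 0.34). When bursae 1 and 2 were left out, 1 was higher and 19 lower (median -1.41). Of 13 genes of the mitochondrial genome, 0 passed in edgeR, 0 reached an unadjusted p under 0.05 and 0 passed in DESeq2 (median -0.01). All 13 were lower without bursae 1 and 2 (median -1.73). Those 2 libraries were picked out by such transcripts, so the counts without them are descriptions. Cox6a1, the form of a cytochrome oxidase subunit found in most tissues, was higher by 2.02 ± 0.55 (adjusted p = 0.016). It did not pass with the replicate block (1.53, adjusted p = 0.071). Cox6a2, the form of the same subunit in heart and skeletal muscle, was lower (-3.7 ± 0.96, adjusted p = 0.013).

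Red blood cell genes were higher in bursa in 5 of 6 cases, with a median of 5.56. Hbb, a beta globin, had 153, 196, 228, 245 and 317 CPM in the bursae and 3.61, 4.92, 6.27, 4.66 and 1.82 CPM in the tendons. Both groups were tight and far apart (5.73 ± 0.36, adjusted p = 1.4e-05). Globin genes share reads with near-identical copies, so the value of a single globin gene is uncertain. Alas2, the first enzyme of haem synthesis in red cells, is not a globin. It had 6.99, 9.54, 11.3, 12.2 and 16.2 CPM in the bursae and at most 0.19 CPM in the tendons (6.64 ± 0.41, adjusted p = 1.4e-05). Whether blood was left in the dissected bursae was not tested.

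Mast cell genes were higher in 6 of 8 cases and lower in 0 (median 2.8), and in 8 of 9 without bursae 1 and 2. Cpa3, the carboxypeptidase of mast cell granules, had 10.8, 5.66, 34.5, 29.5 and 49.9 CPM in the bursae and 1.33, 0.471, 4.44, 0.292 and 0.669 CPM in the tendons. Bursae 1 and 2 were the lowest bursae and tendon 3 the highest tendon, without overlap (4.16 ± 0.82, adjusted p = 0.0032). Cma1, mast cell chymase, was higher too (3.38 ± 0.69, adjusted p = 0.0038), as was Ms4a2, a chain of the IgE receptor (3.19 ± 0.63, adjusted p = 0.0032).

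All 4 MHC class II genes tested were higher (median 1.64). Cd74, the invariant chain of antigen presentation, had 232, 244, 621, 531 and 639 CPM in the bursae and 143, 108, 272, 95.9 and 72.4 CPM in the tendons. Tendon 3 lay above bursae 1 and 2, so the groups overlapped (1.71 ± 0.43, adjusted p = 0.012). The RT1 genes of the list belong to a family of close copies and are uncertain one by one.

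Macrophage genes were higher in 5 of 16 cases and lower in 1 (median 0.67). Without bursae 1 and 2, 11 were higher and 1 lower. With the replicate block 3 were higher and 0 lower, and with all 46 libraries in the fit 8 were higher and 4 lower. DESeq2 gave 2 lower. Adgre1, the macrophage marker F4/80, averaged 22.3 ± 11 CPM in bursa and 5.14 ± 1.85 CPM in tendon (SD, n = 5 each; 2.12 ± 0.39, adjusted p = 0.0023). Cd163, the haemoglobin scavenger receptor of resident macrophages, had 36.5, 26.9, 89.6, 98.1 and 90.2 CPM in the bursae and 28.7, 28.9, 16.7, 13.8 and 12.9 CPM in the tendons. Bursa 2 lay within the tendon range (1.75 ± 0.41, adjusted p = 0.0078). The fractalkine receptor Cx3cr1 was lower (-1.61 ± 0.52, adjusted p = 0.033), a call that was lost without bursa 2, bursa 3, tendon 1 or tendon 3 (highest adjusted p = 0.085, without tendon 1).

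Other white cells were thinly covered. Of 6 T and NK cell genes 2 were higher and 0 lower (median 0.95). As single libraries were left out, 1 to 3 were higher, and 4 of 7 without bursae 1 and 2. With the replicate block 0 were higher, with no filter on low counts 6, and with all 46 libraries in the fit 9. All 3 neutrophil genes tested were higher (median 1.6), at levels of a few CPM at most. None of the 8 B and plasma cell genes with counts matched to a name passed the filter on low counts. Of 5 epithelial and mesothelial genes, 1 was higher and 1 lower, so no epithelial list set the bursa apart.

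Vessel genes were higher in part. Of 15 endothelial genes 6 were higher and 0 lower (median 0.47). Kdr, the VEGF receptor, averaged 170 ± 46.8 CPM in bursa and 54 ± 16.9 CPM in tendon (SD, n = 5 each; 1.65 ± 0.26, adjusted p = 0.0011). Cldn5, a tight junction protein of endothelium, had a fold change of 1.35 ± 0.27 (adjusted p = 0.0036). Vwf, von Willebrand factor, did not pass (0.16 ± 0.33, adjusted p = 0.74), with 77 to 176 CPM in bursa and 64.6 to 193 CPM in tendon.

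Of 16 smooth muscle and pericyte genes, 4 were higher and 1 lower (median 0.57), and without tendon 3, which had the highest level of the list among tendons, 8 were higher. Mcam, an adhesion molecule of the vessel wall, averaged 335 ± 117 CPM in bursa and 68.4 ± 27.9 CPM in tendon (SD, n = 5 each; 2.29 ± 0.35, adjusted p = 8e-04). Of 8 lymphatic genes 0 were higher and 1 lower by edgeR (2 lower without bursa 5), where 2 reached an unadjusted p under 0.05, and 1 was higher and 1 lower by DESeq2. The lower one was Prox1, the lymphatic regulator that muscle also expresses (-1.4 ± 0.27, adjusted p = 0.003).

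Nerve sheath genes were higher in 7 of 13 cases and lower in 1 (median 1.62). Sox10, the transcription factor of Schwann cells, had 5.93, 8, 7.82, 7.72 and 9.34 CPM in the bursae and 1.14, 0.995, 2.81, 1.6 and 0.765 CPM in the tendons. The groups were well apart (2.4 ± 0.33, adjusted p = 0.00045). Scn7a, a sodium channel of non-myelinating Schwann cells, had 36.1, 77.2, 74.5, 74.5 and 79.5 CPM in the bursae and 5.83 to 23.7 CPM in the tendons, with bursa 1 below the other bursae (2.5 ± 0.37, adjusted p = 0.00068). S100b, a calcium-binding protein of Schwann cells that adipocytes also make, was higher by 1.98 ± 0.29 (adjusted p = 0.00066). The lower gene was Cryab, a small heat shock protein abundant in muscle (-4.57 ± 0.75, adjusted p = 0.0012).

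Signals to immune cells differed in both directions. Of 11 chemokine and cytokine genes 3 were higher and 3 lower (median -0.21). Ccl11, eotaxin, had 48.5, 43.4, 65.5, 44.9 and 73.3 CPM in the bursae and 5.32, 6.65, 9.73, 9.26 and 4.69 CPM in the tendons, far apart and with little spread (2.95 ± 0.25, adjusted p = 3.9e-05). Cxcl14, a chemokine of resting tissue, averaged 57 ± 8.12 CPM in bursa and 12.2 ± 2.98 CPM in tendon (SD, n = 5 each; 2.23 ± 0.19, adjusted p = 3.7e-05). Cxcl13, the B cell attractant, averaged 4.53 ± 2.98 CPM in bursa and 20.8 ± 5.8 CPM in tendon (SD, n = 5 each; -2.17 ± 0.54, adjusted p = 0.01). Il33, an alarm cytokine held in stromal nuclei, was lower (-1.14 ± 0.31, adjusted p = 0.015).

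Complement genes also split, with 4 of 15 higher and 5 lower (median -0.4). The higher ones were the components C2, C4a, C4b and C7. C4b, a component of the classical pathway, averaged 917 ± 235 CPM in bursa and 164 ± 103 CPM in tendon (SD, n = 5 each; 2.48 ± 0.47, adjusted p = 0.0026). C7, a part of the membrane attack complex, had a fold change of 2.82 ± 0.58 (adjusted p = 0.0039). Clu, the inhibitor clusterin, was lower (-1.89 ± 0.41, adjusted p = 0.005), and so was the serine protease Masp1 of the lectin pathway (-2.94 ± 0.57, adjusted p = 0.0028).

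Among secreted signals of development, Wnt genes were higher in 3 of 12 cases and lower in 2, or in 4 without bursa 4 (median -0.25). Wnt5a, a ligand of the non-canonical pathway, had 26.5, 21.6, 48.7, 51 and 51.1 CPM in the bursae and 5.38, 3.87, 10.1, 7.73 and 6.6 CPM in the tendons. All bursae were above all tendons, bursae 1 and 2 by the least (2.57 ± 0.33, adjusted p = 0.00033). Dkk3, a secreted protein of the Dickkopf family, had 124 CPM in bursa 4, 7.11 to 22.1 CPM in the other bursae and 206 to 502 CPM in the tendons (-3.06 ± 0.77, adjusted p = 0.011).

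Of 25 genes of the TGF-beta and BMP pathways, 5 were higher and 10 lower (median -0.29). The number higher ranged from 2 to 7 as single libraries were left out, with 2 in 7 of these fits, and was 8 without bursae 1 and 2. Among ligands, Bmp7 averaged 4.64 ± 1.89 CPM in bursa and 0.155 ± 0.081 CPM in tendon (SD, n = 5 each; 4.81 ± 0.45, adjusted p = 5.9e-05), whereas Bmp4 averaged 9.54 ± 4.2 CPM in bursa and 25 ± 5.83 CPM in tendon (SD, n = 5 each; -1.38 ± 0.32, adjusted p = 0.007). Tgfb3, a ligand of embryonic tendon and scarless repair, had a fold change of -1.32 ± 0.31 (adjusted p = 0.0077). Mstn, myostatin, which muscle secretes to limit its own growth, was lower (-3.45 ± 0.73, adjusted p = 0.0046). Of 9 genes of the IGF axis, 3 were higher and 0 lower, or 2 lower without bursa 4 (median 0.43), among them the binding protein Igfbp4 (1.95 ± 0.29, adjusted p = 0.00079).

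Positional transcription factors separated the tissues without an overall direction: 5 of 20 were higher and 7 lower (median -0.04). Pitx1, known as a regulator of hindlimb identity and of some muscle progenitors, had 0 counts in all 5 bursae and 22.8, 19.1, 9.53, 16.5 and 15.5 CPM in the tendons. With the floor of 3 counts over the bursa group, it was at least 564-fold lower in bursa (adjusted p = 5.4e-05). Pitx1 was among the genes that followed the contractile list over the injured tendon libraries, by the measure given above. After injury its fold changes of -1.86 at day 3 and -1.98 at day 14 did not pass. Tbx15, a regulator of limb and trunk mesenchyme, averaged 43 ± 13.5 CPM in bursa and 184 ± 12.4 CPM in tendon (SD, n = 5 each; -2.1 ± 0.21, adjusted p = 9.8e-05).

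Of the 20 positional genes tested, the 5 higher in bursa were all Hox genes, as was 1 of the 7 lower. Hox genes were not counted apart from this list, so no share is given for them. Hoxa3, an anterior Hox gene, had 14.7, 11.4, 10, 10.9 and 11.9 CPM in the bursae and 2.72, 2.88, 3.79, 4.96 and 2.58 CPM in the tendons, clearly apart (1.79 ± 0.2, adjusted p = 0.00016). Hoxb4 was higher by 1.34 ± 0.29 (adjusted p = 0.0056), and Hoxb2 by 1.18 ± 0.32 (adjusted p = 0.016). Hoxb5 passed with all libraries (1.51 ± 0.5, adjusted p = 0.035) but not without bursa 2, 3, 4 or 5 or tendon 1, 2, 4 or 5 (adjusted p = 0.057 to 0.083). Hoxd8 was higher by 0.76 ± 0.17 (adjusted p = 0.0068). Hoxd9 was lower (-0.79 ± 0.23, adjusted p = 0.022), though not without bursae 1 and 2 (adjusted p = 0.062). Meox2, a homeobox gene of somite and limb muscle, was lower in bursa (-0.96 ± 0.21, adjusted p = 0.0062).

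Cell division genes were low in both tissues, with 1 of 10 lower, or 2 without bursa 4, and 0 higher (median -0.44). Of 13 immediate early genes, which respond fast to handling, 1 was higher and 0 lower (median 0.04), with 4 higher without bursae 1 and 2. Of 7 genes of bone-forming cells, 2 were higher and 1 lower, or 2 lower without bursa 4 (median 0.26), and of 2 osteoclast genes tested 1 was higher.

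The same tissues were also compared after injury, in libraries that the uninjured comparison did not use: 6 bursae and 6 tendons with the bursa intact at each of day 3 and day 14. At day 3, 3128 of 15334 features were higher in bursa (20.4%) and 3123 lower (20.4%), or 40.8% in either direction. At day 14, 4730 of 15599 were higher (30.3%) and 4520 lower (29.0%), or 59.3% in either direction. The medians over all features were -0.02 at day 3 and 0.01 at day 14.

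The uninjured tissue difference was found again in part. Of 2905 features higher in uninjured bursa and tested at day 3, 1713 were higher there too (59%, and 56.6% of the 3027 higher at day 3), against 20.9% of all features tested in both. Of 2520 lower ones, 1185 were lower at day 3 (47%, and 39.7% of the 2985 lower at day 3, against 20.6%). At day 14, 2013 of 2949 were higher again (68.3%, and 44.7% of 4502, against 30.7%) and 1371 of 2551 lower again (53.7%, and 32.4% of 4229, against 28.9%). Opposite calls were 2.62% of the higher and 1.71% of the lower features at day 3, and 8.65% and 6.47% at day 14.

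Fat genes were higher and tendon genes lower in bursa after injury too. White adipocyte genes were higher in 19 of 20 at day 3 and 20 of 20 at day 14, with medians of 4.51 and 6.31. Adipoq had fold changes of 5.75 ± 0.75 uninjured, 5.33 ± 0.5 at day 3 (adjusted p = 1.4e-05) and 7.96 ± 0.25 at day 14 (adjusted p = 7.5e-11). Tendon cell genes were lower in 9 and higher in 1 of 13 at day 3, and lower in 10 of 13 at day 14, with medians of -2.42 and -2.87. Scx had -3.53 ± 0.56 uninjured, -1.94 ± 0.49 at day 3 (adjusted p = 0.0085) and -4.12 ± 0.5 at day 14 (adjusted p = 1.5e-05). Prg4 was lower at both days, with -3.7 ± 0.28 (adjusted p = 2.7e-06) at day 3 and -2.99 ± 0.35 (adjusted p = 1.2e-05) at day 14.

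Muscle genes passed in part after injury. Of 17 contractile genes, 4 were lower at day 3 and 8 at day 14, with medians of -1.44 and -0.95. Ckm had -2.8 ± 0.88 uninjured, and neither -0.61 ± 0.98 at day 3 (adjusted p = 0.65) nor 0.23 ± 0.49 at day 14 (adjusted p = 0.7) passed. Red blood cell genes were higher in 5 of 5 at day 3 and 6 of 6 at day 14, with medians of 1.81 and 2.84. The change in the tissue difference itself was tested over 16918 features, of which 13.1% were more negative and 9.48% more positive at day 3, and 18.3% more negative and 14.7% more positive at day 14. For Hbb the fold change was lower than in uninjured tissue by this test at day 3 (-4.1 ± 0.41, adjusted p = 3.5e-08) and at day 14 (-2.96 ± 0.4, adjusted p = 2.3e-06).

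List members were set side by side in the same way. Of 229 list members that passed in uninjured tissue, 139 passed in the same direction at day 3, 170 at day 14 and 130 at both, while 8 passed in the opposite direction at day 3, 14 at day 14 and 6 at both. These opposite calls are to be read against the shares over all features given above, which are of like size. The 6 at both days, singled out after their values were seen, were Col5a3, Dmp1, Acp5, Adam12, Il33 and Hoxd8. Col5a3 had 1.88 ± 0.5 uninjured, -0.85 ± 0.21 at day 3 (adjusted p = 0.0065) and -1.03 ± 0.21 at day 14 (adjusted p = 0.00096). Il33 had -1.14 ± 0.31 uninjured, 1.12 ± 0.12 at day 3 (adjusted p = 2.6e-05) and 1.53 ± 0.18 at day 14 (adjusted p = 1.2e-05). The values of Clu were -1.89 ± 0.41 uninjured, 2.31 ± 0.15 at day 3 (adjusted p = 1.2e-06) and 0.34 ± 0.3 at day 14, where it did not pass (adjusted p = 0.35).

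**Figure D4:**
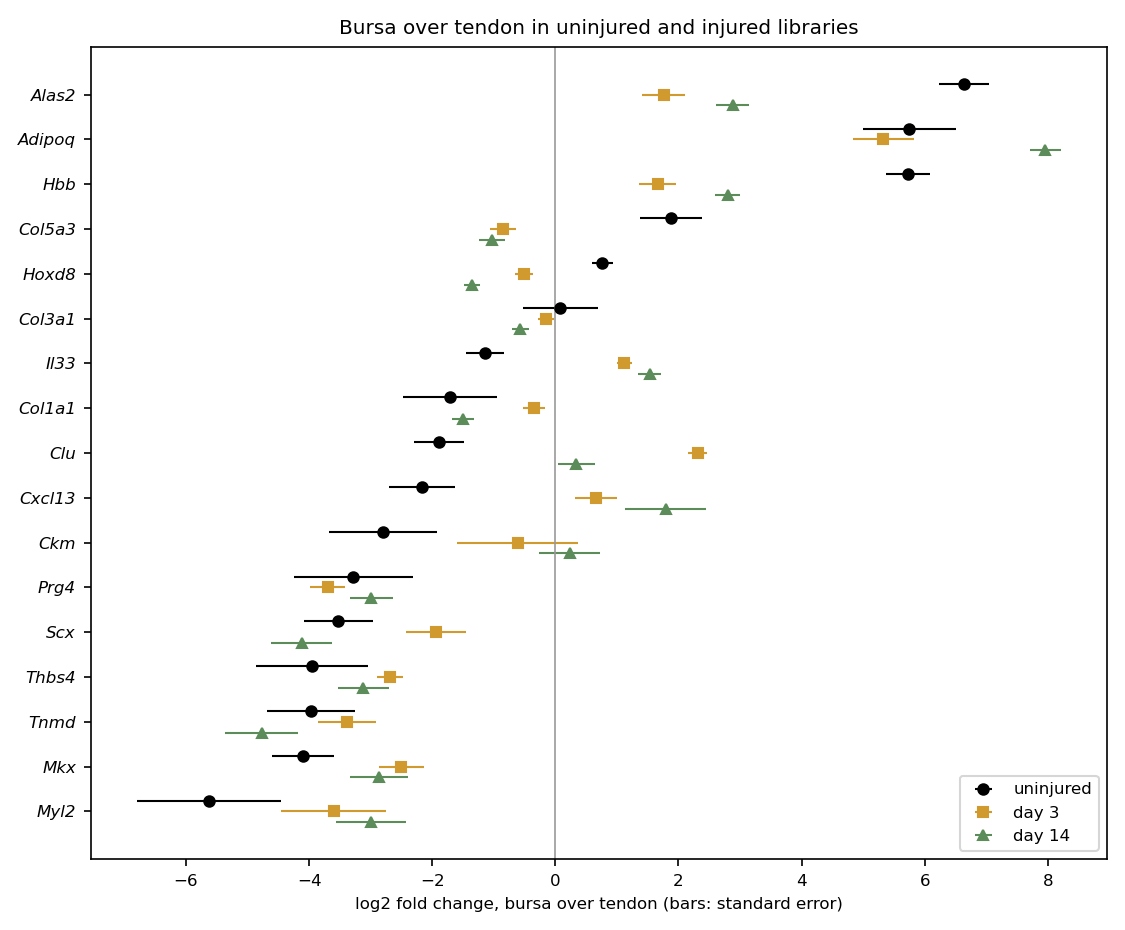
Log2 fold change of bursa over tendon for 17 genes in uninjured libraries (circles, n = 5 per tissue), at day 3 (squares, n = 6) and at day 14 (triangles, n = 6), with bars for the standard error. Adipoq stays above 5 and Tnmd below -3 at all times, the globin gene Hbb comes nearer to 0 after injury, and Col5a3, Hoxd8 and Il33 cross 0. Pitx1, at 0 counts in all uninjured bursae, is left out.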

How the data were processed

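Per the submitters' processing notes, reads were made with bcl2fastq 2.19 and the deposited table of 46 libraries holds estimated counts per transcript from kallisto 0.44.0, which the file gives as whole numbers. Per the file headers, the authors' 11 deposited DESeq2 tables give a signal (baseMean, size-factor-scaled gene counts averaged over the libraries compared) and a log2 fold change. They served for gene names only. No source used here gives the genome build, the transcript set or the DESeq2 version.

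No file used here pairs transcripts with symbols, so names were matched by value: a symbol went to the transcript or pair whose scaled counts gave the deposited baseMean in the 11 tables. This named 14797 of 23747 symbols and 17128 of 31715 transcripts, with 90.2% to 96.7% of the counts per library. Of 1000 shifted values that no gene has, 4 found a match, which, weighted by the symbols searched at each matching step, puts the expected share of wrong names at 0.08%. Unnamed transcripts were tested singly.

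Sums per symbol (29384 features) went through filterByExpr and TMM scaling to the quasi-likelihood test of edgeR 4.0.16 (robust) in R 4.3.3, on the 10 control libraries, with Benjamini-Hochberg adjustment over the 14916 features tested, of which 12503 had a symbol. Per-library levels are TMM-scaled CPM, and list levels are means of log2 CPM with a prior count of 0.5. Injured libraries were fitted per day, and the change of the tissue difference in 1 fit of 34 libraries. The test was also run on simulated counts with the same spread for every gene. That setting is more even than these libraries and does not bear on the calls here. Labels share replicate numbers, but they do not say that these mark an animal, and the numbers were not taken to pair the libraries. Same-numbered bursa and tendon correlated at -0.097 to 0.154, over 0.1 in 2 of 5 pairs. These correlations cannot decide whether an animal was shared, because the uneven content of the bursae also enters them. Alternatives were DESeq2 1.42.0, its size factors, no filter, a replicate block, all 46 libraries, scaling without mitochondrial and muscle genes, and fits without single libraries or without bursae 1 and 2.

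Genes named are the 10 highest and 10 lowest features with a symbol that passed, had at least 10 CPM in the higher tissue and did not overlap, the same among those that did not follow fat or muscle, members of the 40 lists, and Scx, Mkx, Tnmd, Col1a1, Col3a1, Prg4, Ucp1, Ckm and Adipoq. Members, lists and comparisons were chosen with earlier results of these data known, and the examples from each list after their values were seen. Upstream sequences come from RefSeq (GRCr8). Floors cover counting error only, whereas standard errors and SDs also hold the spread between libraries.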

Additional observations from a re-analysis of the deposited data

Results flagged for a closer look

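In 17 of 254 groups of 5 libraries, 1 library stood apart from the other 4 (gap over range above 0.71 on log2(CPM + 0.5)). For groups not chosen by their values, chance gives about 1 in 20, and the share flagged was close to that. Many of these genes were chosen after their values were seen, so that rate does not strictly apply. The flags below are descriptions. Bursa 4 was high for the cartilage and fibrocartilage genes Col2a1 (967 CPM), Clec3a (610 CPM), Chad (186 CPM) and Itga10 (10.7 CPM) and for Serpinb7 (0.482 CPM), while the other bursae reached at most 0.174, 0.558, 1.75, 0.618 and 0.105 CPM for these genes in the same order.

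Bursa 1 was high for Cryab (199 CPM, others 18.1 to 33.7), a chaperone of muscle, and for Atp5mc1 (48.1 CPM, others 20.2 to 25.5), a subunit of ATP synthase. It was also flagged for the muscle regulator Myf5 (0.304 CPM, others 0) and for Coch (0.152 CPM, others 0). With the other bursae at 0, the gap over range is 1 at any level. For this reason too, the chance rate above does not cover these flags. The Coch level was also below the floor of 3 counts in bursa 1, which is 0.228 CPM. Bursa 1 was low for the Schwann cell channel Scn7a (36.1 CPM, others 74.5 to 79.5) and for Hoxb4 (3.04 CPM, others 5.22 to 6.21). Bursa 2 was low for Cd55 (8.97 CPM, others 28.2 to 31.2).

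Tendon 3 was low for Scx (15.5 CPM, others 25.1 to 26.7) and high for Vcam1 (18.5 CPM, others 8.8 to 10.9) and for the fat gene Angptl8 (0.783 CPM, others at most 0.0633). Tendon 2 was high for S100b (259 CPM, others 140 to 162) and for the cytochrome P450 gene Cyp2e1 (11 CPM, others 0.0729 to 0.718).

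The tissue difference after injury departed from the uninjured one in 17 of 36 tests on 18 genes. These genes were chosen with their values known, Col5a3, Il33 and Hoxd8 because their difference changed sides, so the count describes them only. Over all features tested, 9.48% were more positive and 13.1% more negative at day 3, and 14.7% and 18.3% at day 14. On the log2 scale, injured minus uninjured with its standard error, Hbb gave -4.1 ± 0.41 at day 3 and -2.96 ± 0.4 at day 14, and Alas2 gave -4.93 ± 0.57 and -3.81 ± 0.57. Col5a3 gave -2.77 ± 0.48 at day 3 and -2.94 ± 0.48 at day 14, and Hoxd8 gave -1.29 ± 0.22 and -2.14 ± 0.22. In the positive direction, Clu gave 4.16 ± 0.44 at day 3 and 2.2 ± 0.43 at day 14, Cxcl13 gave 2.78 ± 0.79 and 3.91 ± 0.81, and Il33 gave 2.22 ± 0.31 and 2.64 ± 0.31. Adipoq passed at day 14, with 2.17 ± 0.63. Pitx1 gave 9.71 ± 2.18 at day 3 and 9.61 ± 2.23 at day 14, fitted values that depend on the prior count because all uninjured bursae had 0 counts. The adjusted p of these 17 (edgeR quasi-likelihood test) ranged from 3.5e-08 to 0.011.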

How the results depend on the processing

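The number of features higher in uninjured bursa was 2979, and 2430 to 3107 as single libraries were left out, with 2249 to 2893 lower against 2632. With all 46 libraries in the fit 4927 were higher and 3800 lower, with DESeq2 3276 and 3096, with the replicate block 2424 and 2335, and without bursae 1 and 2 3736 and 3818. DESeq2 size factors, no filter, and scaling without mitochondrial and muscle genes gave counts within 1.5 times of the main ones, as did each alternative run at day 3 and day 14. Of 80 list counts (higher and lower members of 40 lists), 10 moved by more than 1.5 times with DESeq2, 13 with the replicate block, 8 with no filter and 32, all upward, with all 46 libraries. With the replicate block 3 collagen genes and 2 cartilage genes were lower, against 0 of each without it, and 2 fatty acid oxidation genes were higher, against 6. The replicate block left 107 of the 113 named genes past the threshold that had passed. It ended the call of Lum (adjusted p = 0.054), Scd (0.1), Cox6a1 (0.071), Cd163 (0.067), Cx3cr1 (0.12) and Hoxb5 (0.053). Over 17 alternatives, 1878 of 1916 values of the 113 genes kept direction and call, 38 kept direction only and 0 reversed, and DESeq2 gave no adjusted p for 5 genes.

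Reversals occurred in 14 of 219 values of genes that had not passed. Col3a1 (0.08) was -0.45 with the replicate block and -0.28 (without bursa 4) to 0.35 as single libraries were left out, and also below 0 without bursa 3 or 5. Col2a1 (0.62) was -8.25 with the block and -10.61 (without bursa 4) to 1.63 without single libraries. Acadm (1.31) was -0.15 with the block and -1.73 without bursae 1 and 2. Mt-co1 (0.39) was -0.49 with the block, -0.14 (without bursa 2, and below 0 without bursa 1) to 0.64 without single libraries and -1.69 without both. Vwf (0.16) ranged from -0.03, without bursa 4, to 0.47, and was -0.01 without tendon 2. The cause of these changes was not tested beyond the library left out. At 12425823 to 20394839 counts per library, values under 1 CPM rest on few counts.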
